A study of Homo sapiens with 6 samples.

Results

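The 6 genes described here are MBP, PMP22, GPM6B, S100B, NGFR and CDH19, which are used as marks of Schwann cells and of the myelin they make. They were chosen by name from a list of 7 genes, and each was read from the one row that carries its symbol among the 18118 genes counted in the clear cell sarcoma cell line SU-CCS-1. The other listed gene, L1CAM, a cell adhesion protein of the immunoglobulin family, was not analysed here. SU-CCS-1 is an established human line that carries the fusion oncogene EWSR1::ATF1 (EA1), in which part of the RNA-binding protein EWSR1 is joined to the DNA-binding part of the transcription factor ATF1. All 6 libraries came from this line, so every group carried the fusion. The groups were cells transfected with a negative control siRNA (siNeg1), with an siRNA against EA1 labelled siEA1-1, or with another labelled siEA1-2, with 2 libraries each and the labels' replicate numbers 1 and 2. The study's methods give 5 pmol of siRNA for 48 h and name a single siRNA against EA1, whereas the labels list both. Each siRNA is 1 sequence in 1 cell line, and the labels do not say whether the 2 libraries of a group came from separate cultures, so p-values measure only the spread between these libraries.

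Schwann cells are the glia of peripheral nerves. They arise from the neural crest, as melanocytes do, and the transcription factor SOX10 is needed in both lineages. Schwann cell precursors carry CDH19. Immature Schwann cells carry NGFR and S100B, and those that wrap an axon switch on EGR2 and a programme of sheath genes that includes PMP22 and MBP.

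MBP (ENSG00000197971) encodes myelin basic protein, which holds the inner faces of the myelin membrane together. It spans chr18:76978827-77133683 on the minus strand of hg38, where GENCODE release 44 lists 49 transcripts, of which 22 are coding, with coding starts spread over 142821 bases. The upstream starts belong to the golli forms, which are made outside myelin too, and counts per gene cannot tell them from the classic myelin forms. PMP22 (ENSG00000109099), at chr17:15229773-15272292 on the minus strand, encodes a membrane protein of compact peripheral myelin whose dosage is known from inherited neuropathies. GPM6B (ENSG00000046653), at chrX:13770939-13938638 on the minus strand, encodes a tetraspan membrane protein of glia and neurons. S100B (ENSG00000160307), at chr21:46598604-46605208 on the minus strand, encodes a calcium-binding protein of glia and of melanocytic cells. NGFR (ENSG00000064300), at chr17:49495293-49515008 on the plus strand, encodes the low-affinity neurotrophin receptor of immature and non-myelinating Schwann cells. CDH19 (ENSG00000071991), at chr18:66501083-66604138 on the minus strand, encodes a cadherin, a calcium-dependent adhesion protein, of Schwann cell precursors.

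ATF1 binds the cAMP response element (CRE), whose letters are TGACGTCA, and its shorter core TGACG. RefSeq promoter windows of GRCh38.p14, each running from 250 bases before to 50 bases after an annotated start, were matched for MBP, PMP22, GPM6B, CDH19 and L1CAM, 10 windows in all. These letters were searched on both strands, and every CRE also holds 2 cores. The 4 windows below are those of MBP, PMP22, GPM6B and CDH19 that hold a CRE or a core. S100B and NGFR had no window in this set and were not searched. The 4 windows are shown 5′ to 3′ along the gene with CRE and core letters in capitals. There, CGTCA is the core read from the opposite strand. The first GPM6B window is chrX:13938589-13938888, the second is chrX:13817044-13817343, that of CDH19 is chr18:66604041-66604340 and that of the upstream MBP start is chr18:77132734-77133033, all on the minus strand.
GPM6B, upstream start: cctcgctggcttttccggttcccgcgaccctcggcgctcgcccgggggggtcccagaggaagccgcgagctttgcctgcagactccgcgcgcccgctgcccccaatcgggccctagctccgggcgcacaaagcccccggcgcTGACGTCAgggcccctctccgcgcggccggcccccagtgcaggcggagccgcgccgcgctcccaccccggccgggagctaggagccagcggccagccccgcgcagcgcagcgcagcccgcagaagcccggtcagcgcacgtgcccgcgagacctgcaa
GPM6B, downstream start: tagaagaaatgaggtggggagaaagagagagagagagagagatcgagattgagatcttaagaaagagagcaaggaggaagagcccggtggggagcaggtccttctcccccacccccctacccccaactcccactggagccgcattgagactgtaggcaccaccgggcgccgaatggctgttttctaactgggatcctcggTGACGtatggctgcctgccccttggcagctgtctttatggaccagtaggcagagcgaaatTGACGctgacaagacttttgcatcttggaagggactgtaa
CDH19: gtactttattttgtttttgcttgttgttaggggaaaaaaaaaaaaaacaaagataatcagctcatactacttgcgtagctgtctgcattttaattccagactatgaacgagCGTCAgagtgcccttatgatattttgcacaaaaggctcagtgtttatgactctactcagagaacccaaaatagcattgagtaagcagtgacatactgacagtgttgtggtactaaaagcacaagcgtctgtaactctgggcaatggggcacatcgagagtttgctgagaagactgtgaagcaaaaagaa
MBP, upstream start: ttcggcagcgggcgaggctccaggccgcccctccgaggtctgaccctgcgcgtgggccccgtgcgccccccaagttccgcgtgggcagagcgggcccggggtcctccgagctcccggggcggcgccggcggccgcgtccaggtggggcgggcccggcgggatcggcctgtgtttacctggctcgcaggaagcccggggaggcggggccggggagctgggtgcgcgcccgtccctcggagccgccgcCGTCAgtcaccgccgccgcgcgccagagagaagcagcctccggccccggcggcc

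The upstream GPM6B window held a full CRE whose first base lay at position -108 from the start site. A CRE was present in 1.85% of 35116 promoter windows of the same length. The downstream GPM6B window held cores at -50 and 11, the CDH19 window held one at -139, and the upstream MBP window held one at -4. Cores were found in 24.6% of all windows, so they are common letters. The downstream MBP window and the 3 PMP22 windows held neither. Letters of an AP1 site (TGAGTCA), found in 4.95% of all windows, were in none of the windows of MBP, PMP22, GPM6B and CDH19. The SOX-type letters ACAAAG, found in 16.1% of all windows, lay at -124 in the upstream GPM6B window, at -118 in 1 PMP22 window and at -204 in the CDH19 window. These matches describe letters only, and binding was not measured in these libraries.

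Between 5942808 and 7599305 reads were counted per library, so that 3 counts, taken as the smallest level that can be told from 0, correspond to 0.386 to 0.534 normalized CPM (counts scaled to library size and by the TMM method). This floor covers counting error only. ATF1, whose sequence lies in the fusion, checked the knockdown with 549 and 680 counts in the siNeg1 libraries and 122 to 159 counts in the 4 knockdown libraries. Its log2 fold change (log2FC) was 2.03 with siEA1-1 and 1.94 with siEA1-2. Counts per gene cannot separate the fusion from ATF1 itself. EWSR1, the other partner, had a log2FC of 0.11 (adjusted p = 0.450) and 0.04 (adjusted p = 0.789) and was not called. The sign follows the study: a log2FC above 0 means that siNeg1 exceeded knockdown, and one below 0 that knockdown exceeded siNeg1. Fold changes and p-values come from edgeR's quasi-likelihood test over 14571 genes with Benjamini-Hochberg adjustment, and a gene was called at an adjusted p under 0.05. The median log2FC of all genes tested was -0.02 with siEA1-1 and -0.00 with siEA1-2.

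MBP, PMP22, GPM6B and S100B rose after knockdown of EA1, to 2.48 to 10.7 times their control mean of normalized CPM. CDH19 fell, its control mean being 1.75 and 2.36 times that with siEA1-1 and siEA1-2, and NGFR was low, variable between libraries and not called. Both siEA1 groups were compared with the same siNeg1 libraries, so their results are not independent of each other. In bulk RNA, fewer cells of a type and less RNA per cell cannot be told apart.

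MBP stood at 156 and 162 normalized CPM in the siNeg1 libraries, at 848 and 744 with siEA1-1, and at 1052 and 686 with siEA1-2. All 4 knockdown libraries lay far above both controls, and the widest spread was between the siEA1-2 libraries. The mean was 159 ± 4.30 CPM (SD, n = 2) in siNeg1, 796 ± 73.3 with siEA1-1 and 869 ± 259 with siEA1-2, or 5.02 and 5.47 times the control mean. The log2FC was -2.33 (SE 0.18, adjusted p = 2.23e-06) with siEA1-1 and -2.45 (SE 0.18, adjusted p = 1.88e-06) with siEA1-2, both called. Only 1.95% and 1.63% of genes tested had a lower log2FC in these comparisons. MBP shares 359 exon bases with an unnamed same-strand gene (ENSG00000279811) that has a row of its own, and how reads in that stretch were assigned is not given in the sources used here.

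PMP22 stood at 78.7 and 79.3 normalized CPM in siNeg1, at 193 and 199 with siEA1-1, and at 240 and 243 with siEA1-2. It was the tightest of the 6 genes, since the libraries of each group lay close together and no group overlapped another. Its mean rose from 79.0 ± 0.423 CPM (SD, n = 2) to 196 ± 4.12 with siEA1-1 and 241 ± 1.96 with siEA1-2, or 2.48 and 3.05 times control. The log2FC was -1.31 (SE 0.10, adjusted p = 1.86e-06) with siEA1-1 and -1.61 (SE 0.10, adjusted p = 6.14e-07) with siEA1-2. This was the smallest rise of the 4 genes that rose, with 6.72% and 4.19% of genes tested at a lower log2FC.

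GPM6B was nearly silent in control cells, with 2 and 11 counts in the siNeg1 libraries. It had 67 and 34 counts with siEA1-1 and 62 and 52 with siEA1-2. On the normalized scale these were 0.299 and 1.41 CPM in siNeg1, 9.53 and 5.60 with siEA1-1, and 11 and 7.30 with siEA1-2. Every knockdown library lay above both controls, of which the lower was under the 3-count floor. Mean normalized CPM was 0.857 ± 0.788 (SD, n = 2), 7.56 ± 2.78 and 9.17 ± 2.64, or 8.83 and 10.7 times control. The log2FC was -3.07 (SE 0.55, adjusted p = 9.16e-04) with siEA1-1 and -3.33 (SE 0.54, adjusted p = 5.82e-04) with siEA1-2. The size of this change rests on the control libraries: without siNeg1 replicate 1 it was -2.41 and -2.67, and without siNeg1 replicate 2 it was -4.55 and -4.80, called in each case. GPM6B shares 271 exon bases with OFD1 on the opposite strand, and whether reads were counted by strand is not given in the sources used here. Genes with no row of their own also share exon bases on the opposite strand. These were 625 bases for GPM6B, 1630 for MBP, 582 for PMP22, and 924 and 202 for NGFR, so the same limit holds there.

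S100B stood at 28.3 and 38.6 normalized CPM in siNeg1, at 161 and 199 with siEA1-1, and at 209 and 177 with siEA1-2. Both controls lay below all knockdown libraries, and the siEA1 groups overlapped. The mean was 33.4 ± 7.27 CPM (SD, n = 2) in siNeg1, 180 ± 27.1 with siEA1-1 and 193 ± 22.6 with siEA1-2, or 5.38 and 5.77 times control. The log2FC was -2.42 (SE 0.16, adjusted p = 9.97e-07) with siEA1-1 and -2.52 (SE 0.16, adjusted p = 9.76e-07) with siEA1-2. Of genes tested, 1.86% and 1.56% had a lower log2FC.

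CDH19 went the other way. It stood at 182 and 159 normalized CPM in siNeg1, at 104 and 90.6 with siEA1-1, and at 50.6 and 94.1 with siEA1-2. Both controls lay above all knockdown libraries, and siEA1-2 replicate 1 was the lowest by far. The mean fell from 170 ± 16.7 CPM (SD, n = 2) to 97.4 ± 9.66 with siEA1-1 and 72.3 ± 30.8 with siEA1-2, so that control was 1.75 and 2.36 times higher. The log2FC was 0.80 (SE 0.21, adjusted p = 0.00916) with siEA1-1 and 1.22 (SE 0.21, adjusted p = 9.04e-04) with siEA1-2. The call with siEA1-1 was lost without siNeg1 replicate 1 (adjusted p = 0.0611), without siEA1-1 replicate 2 (adjusted p = 0.0729) and in DESeq2 (adjusted p = 0.0743), while the direction held. The call with siEA1-2 held under every alternative run, with adjusted p up to 0.00836.

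NGFR was scarce, with 4 and 42 counts in the siNeg1 libraries, 7 and 18 with siEA1-1, and 0 and 9 with siEA1-2. This was 0.599 and 5.4 normalized CPM in siNeg1, 0.995 and 2.96 with siEA1-1, and 0 and 1.26 with siEA1-2. The groups overlapped, and within each group replicate 2 was the higher library. The log2FC was 0.65 (SE 0.92, adjusted p = 0.613) with siEA1-1 and 2.13 (SE 1.07, adjusted p = 0.147) with siEA1-2, neither of which was called. One library decided the direction, since without siNeg1 replicate 2 the log2FC became -1.64 (adjusted p = 0.385) and -0.15 (adjusted p = 0.955). It was called with siEA1-2 when the replicate number entered the fit as a block (2.17, adjusted p = 0.0236), without siNeg1 replicate 1 (2.94, adjusted p = 0.0417) and without siEA1-2 replicate 2 (7.37, adjusted p = 0.0211), where only a library at 0 counts was left in that group. The call of NGFR thus depended on the fit and on single libraries at these low counts.

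**Figure D1:**
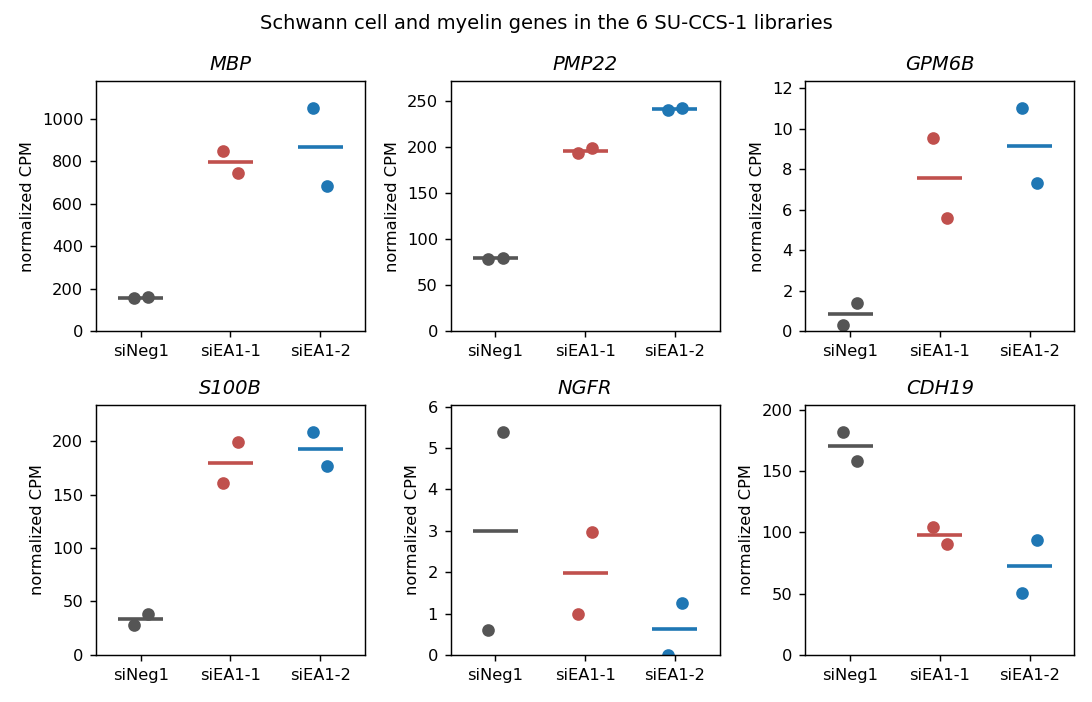
Normalized CPM of the 6 genes in each library, with 1 point per library, a bar at the mean of each group of 2 and a separate linear axis from 0 for each gene. MBP, PMP22, GPM6B and S100B sat higher in all 4 knockdown libraries than in both siNeg1 libraries, CDH19 sat lower, and NGFR overlapped.

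**Figure D2:**
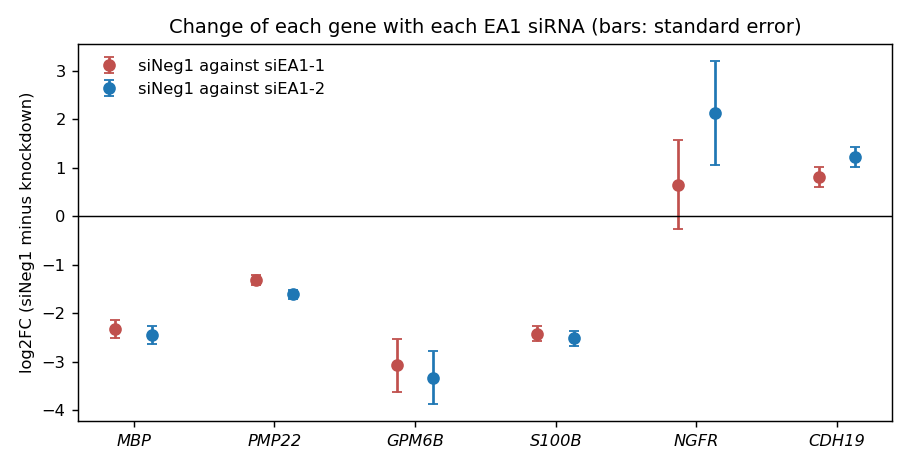
Log2FC of siNeg1 minus knockdown for each gene and each EA1 siRNA, with bars of 1 standard error. Values ran from -3.33 for GPM6B to 2.13 for NGFR, whose bars were the widest.

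With each siRNA, 4 of the 6 genes were called as higher in knockdown, where 19.9% (siEA1-1) and 18.5% (siEA1-2) of all genes tested were called in that direction. The 1 gene called as higher in control, CDH19, compares with 20.3% and 18.2% of all genes tested. Against the mean of both siRNAs the same genes were called, 4 higher in knockdown (21.5% of all genes tested) and 1 higher in control (22.1%). In that comparison the log2FC was -2.39 for MBP, -1.46 for PMP22, -3.20 for GPM6B, -2.47 for S100B and 1.01 for CDH19. NGFR, at 1.39 (adjusted p = 0.198), was not called, and it had the wider library spread described above, with -0.90 without siNeg1 replicate 2. In 5 of the 6 genes both control libraries lay on one side of all 4 knockdown libraries, a pattern that 55.4% of all genes tested showed.

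Between the siRNAs none of the 6 genes was called by edgeR, where 0.796% of all genes tested were called as higher with siEA1-1 and 1.44% as higher with siEA1-2. DESeq2 called 0 of the 4 genes to which it gave an adjusted p, and 1 of them, PMP22, had an unadjusted edgeR p under 0.05. The difference of siEA1-1 minus siEA1-2 was -0.12 for MBP (SE 0.17, adjusted p = 0.773), -0.10 for S100B (SE 0.15, adjusted p = 0.796) and -0.26 for GPM6B (SE 0.41, adjusted p = 0.819). For PMP22 it was -0.30 (SE 0.09, adjusted p = 0.127), with the higher level under siEA1-2. CDH19 gave 0.42 (SE 0.22, adjusted p = 0.360), and was called without siEA1-2 replicate 2 (0.96, adjusted p = 0.00107), when only the lowest library was left in that group. NGFR gave 1.47 (SE 1.14, adjusted p = 0.581).

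Levels of different genes were compared in TPM, a level per library in which counts are divided by the merged length of all annotated exons of each gene. That length was 18730 bases for MBP, 10398 for PMP22, 6864 for CDH19 and 1806 for S100B. A transcript can be much shorter than this, so the order between genes depends on the divisor. Without division by length, control means were 170 normalized CPM for CDH19, 159 for MBP, 79.0 for PMP22 and 33.4 for S100B. In control cells CDH19 led with a mean of 88.0 TPM, followed by S100B at 66.6, MBP at 30.2, PMP22 at 27.1, NGFR at 2.72 and GPM6B at 0.552. CDH19, at 88.3 and 87.7 TPM, lay above both S100B libraries, which were at 52.1 and 81.1, whereas MBP overlapped PMP22 and NGFR overlapped GPM6B. After knockdown the order changed. S100B led at 373 TPM with siEA1-1 and 385 with siEA1-2, followed by MBP at 159 and 165, PMP22 at 70.7 and 84.1, and CDH19 at 53.2 and 39.0. GPM6B, at 4.91 and 5.67 TPM, then stood above NGFR, at 1.79 and 0.593. With each siRNA the lowest library of each of these genes lay above the highest library of the next.

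**Figure D3:**
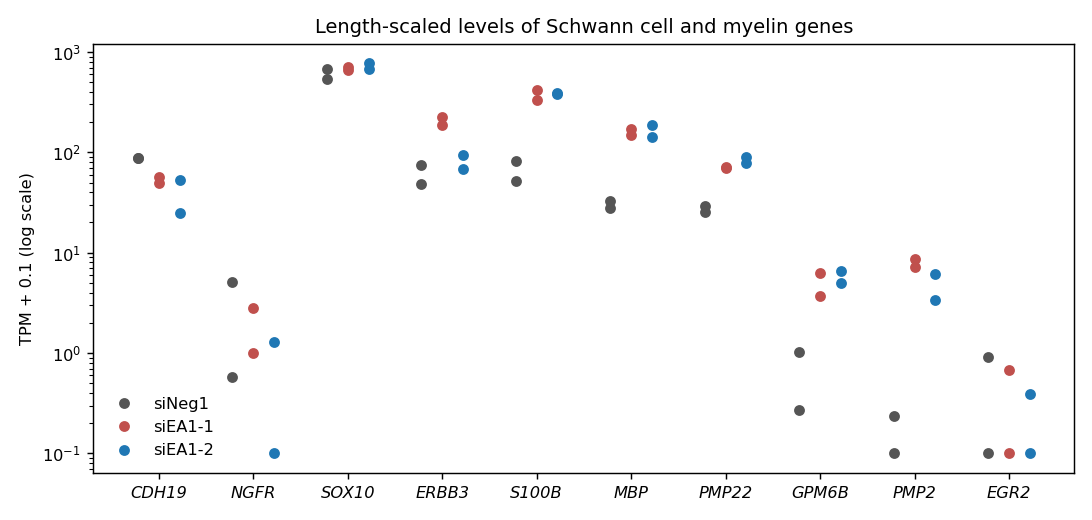
TPM (with 0.1 added, log scale) of the 6 genes and of related Schwann cell genes in each library, with 1 point per library coloured by group. SOX10 was high in every group and not called, and EGR2 and PMP2 stayed near the bottom of the scale in siNeg1.

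Which genes shared a profile was measured by the root mean square difference between log2 CPM values centred on each gene's own mean over the 6 libraries. MBP was most like RAB38 (0.0924) and GYG2 (0.116), of which RAB38 is known for its part in the traffic of pigment enzymes to melanosomes. PMP22 was most like DDO (0.0885) and EGLN3 (0.0899), S100B like FLRT3 (0.0986) and CCL17 (0.112), and CDH19 like ERLIN1 (0.0932) and TGFB1 (0.109). CCL17 had 0 to 0.129 CPM in siNeg1, so its profile rests on few counts. The nearest profiles of GPM6B, AGPAT4 (0.234) and SV2B (0.260), and of NGFR, KLHL14 (0.555) and the pseudogene RN7SL754P (0.560), were farther off.

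Beyond MBP and PMP22, a list of 25 myelin sheath genes had 19 in the table and 18 tested. With siEA1-1, 8 were higher in knockdown and 2 higher in control, and with siEA1-2, 7 and 2, with 6 higher in knockdown under both. Those higher in knockdown were 44.4% and 38.9% of the genes tested in the list, where all genes tested gave 19.9% and 18.5%, and those higher in control were 11.1% with each siRNA, where all genes tested gave 20.3% and 18.2%. The median log2FC was -0.55 with siEA1-1 and -0.45 with siEA1-2. The counts of genes higher in knockdown fell to 5 with siEA1-1 when siNeg1 replicate 1, siEA1-1 replicate 1 or siEA1-1 replicate 2 was left out, and to 4 with siEA1-2 when either siNeg1 library was.

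PMP2, a fatty acid binding protein of peripheral myelin, had 0 and 1 counts in siNeg1, 47 and 49 with siEA1-1, and 36 and 21 with siEA1-2. It was called with each siRNA (adjusted p up to 2.86e-04), and because both controls were under 3 counts no fold is given. Its level stayed low after knockdown, at 7.84 TPM with siEA1-1 and 4.68 with siEA1-2. NDRG1, a protein needed for myelin upkeep, rose with a log2FC of -2.22 and -1.84. DAG1, the dystroglycan that ties Schwann cells to their basal lamina, had the highest level of the list in siNeg1, 318 TPM, with 346 TPM under siEA1-1 and 237 TPM under siEA1-2. It was called as higher in control with siEA1-2 (log2FC 0.45, adjusted p = 0.0299) and not called with siEA1-1 (-0.05, adjusted p = 0.801). The call was lost without siNeg1 replicate 2 (0.37) and without siEA1-2 replicate 1 (0.30).

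In a list of 26 Schwann cell lineage regulators and surface markers, 16 were tested. Of these, 9 were higher in knockdown and 3 higher in control with siEA1-1, and 5 and 3 with siEA1-2, with medians of -0.51 and -0.30. The share higher in control was 18.8% with each siRNA, close to the 20.3% and 18.2% of all genes tested, and the share higher in knockdown was 56.2% and 31.2%, against 19.9% and 18.5%. SOX10 was abundant in every group, at 612 TPM in siNeg1, 685 with siEA1-1 and 724 with siEA1-2, and was not called (log2FC -0.09, adjusted p = 0.522, and -0.23, adjusted p = 0.125). EGR2, the factor that drives myelination, had 0 to 6 counts in every library and was not tested. POU3F1, a factor that acts before EGR2 in myelination, rose with a log2FC of -0.90 (adjusted p = 0.00256) and -1.07 (adjusted p = 9.63e-04).

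NRG1, the axonal growth factor that signals to Schwann cells, fell from 86 and 89 counts in siNeg1 to 10 and 1 with siEA1-1 and to 5 and 4 with siEA1-2. Its log2FC was 3.84 (adjusted p = 1.67e-04) and 4.06 (adjusted p = 1.79e-04), and the first became 6.05 without siEA1-1 replicate 1 and 3.10 without siEA1-1 replicate 2. ERBB3, the receptor for NRG1 on Schwann cells, rose with siEA1-1 (log2FC -1.68, adjusted p = 8.69e-06). With siEA1-2 it was not called (-0.38, adjusted p = 0.0742), though it was called without siNeg1 replicate 2 (-0.58, adjusted p = 0.0304), without siEA1-2 replicate 1 (-0.49, adjusted p = 0.0168) and with the replicate block (-0.39, adjusted p = 0.00482). ADAM22, a binding partner of the Schwann cell signal LGI4, fell with a log2FC of 1.53 and 1.19. ADGRG6, a receptor needed for the start of myelination, fell with 0.68 and 0.71. WWTR1, a co-activator of the TEAD factors in Schwann cells, rose with -1.22 and -0.95.

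Of 15 listed genes of the repair Schwann cell, the state taken after nerve injury, 7 had a row and 6 were tested. In control 4 of these were called as higher under siEA1-1 and 5 under siEA1-2, or 66.7% and 83.3%, against 20.3% and 18.2% of all genes tested. In the other direction edgeR and DESeq2 called 0 genes, and 0 had an unadjusted edgeR p under 0.05. The medians were 2.07 and 2.36. LIF, a cytokine of injured nerve, fell with a log2FC of 3.90 and 4.10, and the growth factor FGF5 with 2.96 and 3.09, the latter being 3.86 without siEA1-2 replicate 2. RUNX2, a transcription factor of the repair state, fell with 3.49 and 3.09. JUN, the factor that drives this state, had a log2FC of -0.51 (adjusted p = 0.215) with siEA1-1 and 1.09 (adjusted p = 0.0282) with siEA1-2. The latter was not called without siNeg1 replicate 1 (0.93, adjusted p = 0.13) or siEA1-2 replicate 1 (0.82, adjusted p = 0.0967).

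Around NGFR, 13 of 22 neurotrophin receptors, ligands and partners were tested, NGFR included. With siEA1-1, 2 were higher in control and 5 in knockdown, and with siEA1-2, 1 and 5, with medians of -0.16 and -0.17. Those higher in control were 15.4% and 7.69% of the genes tested in the list, against 20.3% and 18.2% of all genes tested, and those higher in knockdown 38.5% with each siRNA, against 19.9% and 18.5%. Without siNeg1 replicate 2 or siEA1-1 replicate 1 the 5 with siEA1-1 became 3. Without either siEA1-1 library or siNeg1 replicate 1 the 2 became 1, and without any 1 of the siNeg1 and siEA1-2 libraries the 1 with siEA1-2 became 2. NTRK2, the receptor for BDNF, had 174 and 252 normalized CPM in siNeg1, 12.2 and 28.0 with siEA1-1, and 13 and 42.0 with siEA1-2. Every knockdown library lay below both controls, and the log2FC was 3.43 (adjusted p = 5.99e-05) and 2.92 (adjusted p = 1.80e-04). These values became 4.14 without siEA1-1 replicate 2 and 4.07 without siEA1-2 replicate 2. SORT1, the sorting receptor that pairs with NGFR for proneurotrophins, rose with -1.11 and -1.03. Its relative SORCS1, at 2 and 7 counts in siNeg1, had -2.46 and -2.43, calls that were lost without siNeg1 replicate 1 (-1.93, adjusted p = 0.0521, and -1.90, adjusted p = 0.0606) and, for siEA1-1, without its replicate 1 (-2.15, adjusted p = 0.0683). Without siNeg1 replicate 2 they were -3.43 and -3.40. The highest levels of the list in siNeg1 were those of ARHGDIA, a GTPase inhibitor that binds NGFR, at 838 TPM, and of BEX3, another NGFR binding protein, at 481 TPM.

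Around CDH19, 12 of 24 classical cadherins and catenins were tested, CDH19 included. With siEA1-1, 4 were higher in control and 4 in knockdown, and with siEA1-2, 5 and 4, with medians of -0.19 and 0.23. These were 33.3% and 41.7% higher in control, against 20.3% and 18.2% of all genes tested, and 33.3% higher in knockdown with each siRNA, against 19.9% and 18.5%. With siEA1-2 the 4 genes higher in knockdown became fewer whichever single library was left out. With siEA1-1 they became fewest without siNeg1 replicate 1. CDH7, the closely related cadherin of the neural crest, had 10.8 and 11.8 normalized CPM in siNeg1, 120 and 143 with siEA1-1, and 140 and 112 with siEA1-2. It thus moved against CDH19 in all 4 knockdown libraries, with a log2FC of -3.53 (adjusted p = 1.23e-07) and -3.47 (adjusted p = 1.91e-07). CDH2, the N-cadherin of neural and crest cells, had -0.07 (adjusted p = 0.761) with siEA1-1 and 0.86 (adjusted p = 0.00215) with siEA1-2. JUP, the junction protein plakoglobin, fell with 1.93 and 2.45, or 1.28 and 1.81 without siNeg1 replicate 2. CTNNA1, the catenin that links cadherins to actin, fell with 0.98 and 0.99 from 406 TPM in siNeg1, and CTNNB1, beta-catenin, stood at 262 TPM in siNeg1 and at 345 and 331 TPM after knockdown. The log2FC of CTNNB1 was small, -0.32 and -0.31, and both calls were lost with RLE size factors (adjusted p = 0.0541 and 0.0538). With siEA1-2 its call was also lost with scaling by library totals (adjusted p = 0.0704) and with only the 4 libraries compared (adjusted p = 0.0649). The siEA1-1 call of CTNNB1 was lost when any single siNeg1 or siEA1-1 library was left out. Its siEA1-2 call was lost without any single library except siEA1-2 replicate 2. Without 1 library its log2FC ranged from -0.38 to -0.22 with siEA1-1 and from -0.38 to -0.21 with siEA1-2. CTNNA2, the neural form, had 6 and 1 counts in siNeg1 and log2FC of -3.23 and -2.37. The first was -5.01 without siNeg1 replicate 1 and -2.34 without siNeg1 replicate 2. The second became -4.16 without siNeg1 replicate 1 and was not called without siNeg1 replicate 2 (-1.49, adjusted p = 0.172) or siEA1-2 replicate 2 (-1.64, adjusted p = 0.188).

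L1CAM's family and binding partners gave 10 tested genes of 18. With siEA1-1, 3 were higher in control and 4 in knockdown, and with siEA1-2, 4 and 3, with medians of -0.20 and 0.21. Each count is of 10 genes, where between 18.2% and 20.3% of all genes tested were called in each direction. NFASC, a nodal adhesion protein of the family, fell with a log2FC of 1.59 with each siRNA. CNTN1, its partner at the paranode, rose from 12 and 9 counts in siNeg1 to 189 and 193 with siEA1-1 and 167 and 141 with siEA1-2, with a log2FC of -4.31 (adjusted p = 1.62e-06) and -4.06 (adjusted p = 3.35e-06). CHL1, the close homologue of L1CAM, had -0.40 (adjusted p = 0.239, but 0.0255 with the replicate block) and 0.81 (adjusted p = 0.0372), the latter not called without siNeg1 replicate 2 (0.59, adjusted p = 0.212) or siEA1-2 replicate 1 (0.54, adjusted p = 0.126). NRCAM had -1.81 (adjusted p = 0.00623) and 0.08 (adjusted p = 0.915), the former not called without siNeg1 replicate 1 (-1.49, adjusted p = 0.0514) or siEA1-1 replicate 2 (-1.48, adjusted p = 0.0856). SDCBP, the scaffold syntenin, rose with -0.88 and -1.02. EZR, the membrane linker ezrin, had the highest level of the list in siNeg1, 474 TPM, with 363 and 272 TPM after knockdown.

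All 8 S100 genes in the table were tested, S100B included, of 19 listed. With siEA1-1, 4 were higher in control and 3 in knockdown, and with siEA1-2, 5 and 2, with medians of 0.12 and 0.64. The shares higher in control were 50% and 62.5%, against 20.3% and 18.2% of all genes tested, and those higher in knockdown 37.5% and 25%, against 19.9% and 18.5%. S100A1, like S100B a small calcium-binding protein and its known dimer partner, rose with a log2FC of -2.21 (adjusted p = 1.99e-06) and -1.57 (adjusted p = 2.98e-05). S100P fell with 1.18 and 1.37, S100A16 with 1.06 and 1.09, and S100A11, which had the highest level of the family in siNeg1 at 1119 TPM, with 0.85 and 0.84.

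**Figure D4:**
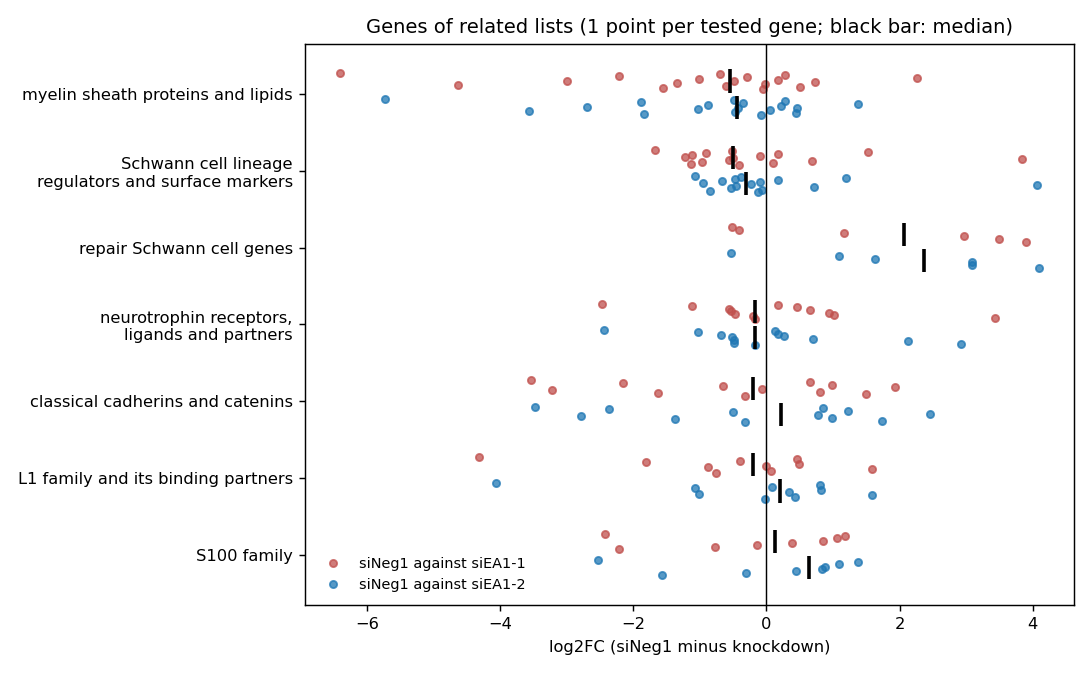
Log2FC of siNeg1 minus knockdown for every tested gene of 7 related lists, with 1 point per gene and siRNA and a black bar at each list's median. The repair Schwann cell genes had medians of 2.07 and 2.36, and the points below -3.5 in the myelin list are fitted values that rest on at most 2 counts per siNeg1 library.

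Cell type markers were read to check the tumour cell label. All 7 clear cell sarcoma and melanocytic markers (MITF, PMEL, MLANA, TYR, DCT, SOX10 and S100B) had a row, and their summed level was 2225 to 2263 TPM in siNeg1, 7157 to 7164 with siEA1-1 and 6788 to 9635 with siEA1-2. S100B is itself one of these markers. Of the others, MITF, PMEL, MLANA, TYR and DCT were called as higher in knockdown with each siRNA and SOX10 was not, so these markers moved in the same direction as MBP, PMP22, GPM6B and S100B. Of 8 markers of myelinating Schwann cells, 7 had a row, MAG having none, with EGR2 near 0 and 4 of 6 tested called as higher in knockdown with each siRNA. MBP itself was among these 4, and 19.9% and 18.5% of all genes tested were called in that direction. In the other direction DRP2, a dystroglycan partner in Schwann cells, was called with siEA1-1 (log2FC 2.26, adjusted p = 0.0371) from 27 and 22 counts in siNeg1 against 1 and 8. This call was lost in DESeq2 (adjusted p = 0.0707), without either siNeg1 library (1.99, adjusted p = 0.168, and 2.53, adjusted p = 0.0680) and without siEA1-1 replicate 1 (1.36, adjusted p = 0.262), and the value was 4.44 without siEA1-1 replicate 2. With siEA1-2 DRP2 was not called (1.38, adjusted p = 0.152), and no marker of this list was called as higher in control by edgeR, by DESeq2 or at an unadjusted edgeR p under 0.05. Their summed level was 216 to 223 TPM in siNeg1, 1721 to 1770 with siEA1-1 and 1264 to 1532 with siEA1-2. Of 10 markers of non-myelinating Schwann cells and precursors, 6 had a row and 5 were tested. With siEA1-1, 1 was higher in control and 2 in knockdown, and with siEA1-2, 1 and 0 (0 also by DESeq2, 1 at an unadjusted edgeR p under 0.05). This list holds CDH19, NGFR and L1CAM, and the gene higher in control was CDH19 itself. Of all genes tested, 20.3% and 18.2% were called as higher in control and 19.9% and 18.5% as higher in knockdown. Their summed level, mostly SOX10, was 684 to 860 TPM in siNeg1, 918 to 1008 with siEA1-1 and 781 to 931 with siEA1-2. Of 6 neuronal markers only TUBB3 had a row (0.241 to 1.25 TPM), of 5 immune markers CD68 and LYZ (5.13 to 14.6 TPM summed), and of 5 skeletal muscle markers none. Of 6 fibroblast markers, COL1A1 and LUM had a row, with a summed level of 1.91 to 2.85 TPM in siNeg1, 9.88 to 14.4 with siEA1-1 and 15.8 to 24.8 with siEA1-2, and LUM was called as higher in knockdown with each siRNA (log2FC -2.64 and -3.46, or -3.33 and -4.15 without siNeg1 replicate 1). The part of these markers in the changes of the Schwann cell and myelin genes was not tested.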

How the data were processed

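RNA-seq libraries of SU-CCS-1 cells were analysed, 2 for each of 3 siRNAs, grouped by their labels. The authors prepared them with a stranded poly(A) kit, used BWA-MEM for alignment to hg38 and counted them per gene with featureCounts 1.6.3. They deposited raw counts per gene, without normalization, in a table of 18118 genes. The annotation and the strand setting of the counting are not given in the sources used here. Loci, exon lengths and overlaps were taken from GENCODE release 44, which held 18063 of the identifiers, and promoter windows from RefSeq.

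From the deposited counts, edgeR 4.0.16 (R 4.3.3) was run with filterByExpr (minimum count 10, minimum total 15), TMM scaling and the quasi-likelihood test over all 6 libraries in 3 groups, with Benjamini-Hochberg adjustment of p over 14571 genes. The common biological coefficient of variation was 0.109. Standard errors were derived from the F statistic. Log2 CPM profiles used a prior count of 2. TPM was computed from counts and merged exon length. The fits were tested on simulated counts. The alternatives were DESeq2 1.42.0, RLE size factors, scaling by library totals (chosen after seeing the data), other filters on low counts, the replicate number as a block, only the 4 libraries compared, and each library left out in turn.

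The 7 genes and the 8 related and 7 marker lists were chosen with earlier results of these data known. Beside the analysed genes and the targeted genes, the text names in each list the 3 called genes with the largest change, the 2 with the highest TPM in siNeg1 and set relatives of the 7 genes. NDRG1, POU3F1, JUN, LUM and DRP2 were named after their values were seen. Set relatives with no row were not analysed here, and 1 related list and some other items are not reported here.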

Additional observations from a re-analysis of the deposited data

Results flagged for a closer look

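A closer look, limited to genes named above, was called for in 4 related genes whose change differed between the EA1 siRNAs by edgeR's test of the difference itself. Listed genes not named above were called too. In the myelin list UGT8 was higher with siEA1-1 (0.58, adjusted p = 0.0462) and GJB1 higher with siEA1-2 (-0.58, adjusted p = 0.0170). UGT8 was not called when any single siNeg1 or siEA1-1 library was left out. GJB1 was not called when either siEA1-1 library was left out. In the S100 list 1 gene was called as higher with siEA1-1, a call lost when siNeg1 replicate 1 or either siEA1-1 library was left out. ERBB3 was higher with siEA1-1 than with siEA1-2 by 1.30 on the log2 scale (adjusted p = 0.00246), at 586 and 697 normalized CPM against 235 and 286. CDH2 was higher with siEA1-1 by 0.928 on the log2 scale (adjusted p = 0.0182), at 35.7 and 31.3 against 15.8 and 19.2 normalized CPM, and was not called without siEA1-1 replicate 1 (0.83, adjusted p = 0.139) or replicate 2 (1.02, adjusted p = 0.139). CHL1 was higher with siEA1-1 by 1.21 on the log2 scale (adjusted p = 0.0444), at 37.3 and 61.9 against 16 and 26.1 normalized CPM, and was not called without siNeg1 replicate 1 (1.21, adjusted p = 0.0533), siEA1-1 replicate 2 (0.81, adjusted p = 0.396) or siEA1-2 replicate 1 (0.91, adjusted p = 0.0509), or with only the 4 libraries compared (1.22, adjusted p = 0.0597). JUN was higher with siEA1-1 by 1.6 on the log2 scale (adjusted p = 0.0357), at 12.2 and 22.9 against 4.27 and 7.02 normalized CPM, and was not called without siNeg1 replicate 1 (1.6, adjusted p = 0.0533), without siEA1-1 replicate 2 (1.10, adjusted p = 0.370) or with only the 4 libraries compared (1.61, adjusted p = 0.0597). DESeq2 gave no adjusted p for it. None of MBP, PMP22, GPM6B, S100B, NGFR and CDH19 was called as different between the siRNAs by this test, and groups of 2 libraries allow no check for a single library that stands apart.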

How the results depend on the processing

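MBP, PMP22, GPM6B and S100B kept their direction and call against control under every alternative that gave a value, and 277 of 294 values of the 6 genes kept direction and call. GPM6B and NGFR gave no value with at least 10 counts required in every library. Of the 6 genes, those called as higher in control with siEA1-1 numbered 0 with DESeq2 and 0 to 1 without 1 library, where CDH19 was the call lost. With siEA1-2 they numbered 2 with the replicate block and 1 to 2 without 1 library, and against the mean of both siRNAs 1 with the block and 1 to 2 without 1 library, where NGFR was the call gained. Of 1047 values of 39 other named genes, 987 kept direction and call. NGFR with siEA1-2 was called with the replicate block (2.17, adjusted p = 0.0236), and so were ERBB3 with siEA1-2 (-0.39, adjusted p = 0.00482) and CHL1 with siEA1-1 (-0.39, adjusted p = 0.0255). Same-numbered libraries deviated together at correlations of 0.130, 0.199 and 0.144, but with 2 numbers this does not show that they were paired. Without 1 library, the log2FC of NGFR ranged from -1.64 to 1.62 with siEA1-1, from -0.15 to 7.37 with siEA1-2 and from -0.90 to 4.02 against their mean. Values near 0 that changed sign without 1 library ranged as follows on the log2 scale: CDH2 with siEA1-1 -0.155 to 0.0439, CHL1 with siEA1-1 -0.732 to 0.0230, DAG1 with siEA1-1 -0.19 to 0.11, EWSR1 with siEA1-2 -0.0456 to 0.156, GPM6B between the siRNAs -0.701 to 0.0695, MBP between the siRNAs -0.39 to 0.21, JUN with siEA1-1 -0.903 to 0.0233, NRCAM with siEA1-2 -0.34 to 0.56 and S100B between the siRNAs -0.257 to 0.0462. Between the siRNAs, genes called as higher with siEA1-1 numbered 323 with the replicate block and 71 with only the 4 libraries compared (13 to 317 without 1 library, 0 to 1 of the 6 genes), against 116. Those higher with siEA1-2 numbered 530 with the replicate block, 124 with scaling by library totals, 326 with DESeq2 and 105 with only the 4 libraries (20 to 471 without 1 library), against 210. Genes called as higher in knockdown without 1 library numbered 1892 to 3075 with siEA1-1, 1767 to 2543 with siEA1-2 and 2030 to 3146 against the mean. Among the lists, requiring at least 10 counts in every library left 5 of 8 myelin genes higher in knockdown and 1 of 2 higher in control with siEA1-1, 2 of 4 L1 family genes higher in knockdown with siEA1-1 and 2 of 4 cadherins and catenins with siEA1-2. Myelin genes higher in control numbered 1 with DESeq2 for each siRNA, and without 1 library 1 to 2 with siEA1-1 and 0 to 3 with siEA1-2, against 2. Neurotrophin genes higher in control with siEA1-2 numbered 2 with no filter on low counts or the replicate block, against 1. The causes were not tested. With 2 libraries per group and few counts, GPM6B and NGFR are the least certain values.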
